A study of Rattus norvegicus with 12 samples.

Results

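Of 8 genes chosen for cholesterol synthesis, 7 could be followed in the rat liver epithelial line TRL1215 after long exposure to perfluorooctanoic acid (PFOA, a fluorinated surfactant). The genes were Hmgcs1, Sqle, Idi1, Fdft1, Lss, Cyp51, Dhcr7 and Insig1, chosen by their place in the pathway, and each was read from the probe set that carried its symbol alone. Hmgcs1 is not analysed here, which left 7 of the 22093 genes in the table. RNA was measured on 12 Affymetrix arrays in 4 groups of 3. The control cells were passage-matched and received no PFOA, while the groups T10, T50 and T100 were kept in 10, 50 and 100 µM with fresh compound at each weekly passage. The labels give the exposure as 38 weeks in 1 field and as lasting up to that time in another. All 4 groups are the same line grown in William's E medium with serum. The labels do not say whether replicates were grown apart from each other, so p-values measure only the spread between these samples.

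Cholesterol is built from acetyl-CoA through mevalonate, isoprenoid units and squalene, which is closed into lanosterol and trimmed to the final sterol. When sterols run low in the endoplasmic reticulum, the SREBP factors are carried by SCAP to the Golgi, cut there, and switch on the genes of the pathway together. INSIG proteins hold the SCAP complex back when sterols are plentiful, and liver is a major site of the pathway in the body.

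The promoters of 3 genes are shown because they hold a CCAAT box, the site of the factor NF-Y that commonly works beside SREBP. The windows are those of RefSeq on build GRCr8 and run from 250 bases before to 50 bases after the gene's start, written 5′ to 3′ in the direction of the gene, at chr17:66547475-66547774 (minus strand) for Idi1, chr20:12118181-12118480 (minus strand) for Lss and chr4:8057720-8058019 (minus strand) for Insig1. Capitals mark CCAAT read on either strand, and here each appears as its reverse complement.
Idi1: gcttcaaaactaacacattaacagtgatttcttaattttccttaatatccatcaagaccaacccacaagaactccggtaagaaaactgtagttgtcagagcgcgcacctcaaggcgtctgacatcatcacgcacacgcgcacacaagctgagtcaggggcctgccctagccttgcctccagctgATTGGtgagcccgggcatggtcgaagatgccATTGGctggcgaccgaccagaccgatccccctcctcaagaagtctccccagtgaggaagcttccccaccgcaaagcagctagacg
Lss: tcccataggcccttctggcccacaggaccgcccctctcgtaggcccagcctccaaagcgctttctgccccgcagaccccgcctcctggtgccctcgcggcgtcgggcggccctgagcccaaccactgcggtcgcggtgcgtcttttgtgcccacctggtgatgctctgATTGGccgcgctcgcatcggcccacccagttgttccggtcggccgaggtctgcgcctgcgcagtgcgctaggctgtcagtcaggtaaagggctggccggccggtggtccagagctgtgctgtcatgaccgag
Insig1: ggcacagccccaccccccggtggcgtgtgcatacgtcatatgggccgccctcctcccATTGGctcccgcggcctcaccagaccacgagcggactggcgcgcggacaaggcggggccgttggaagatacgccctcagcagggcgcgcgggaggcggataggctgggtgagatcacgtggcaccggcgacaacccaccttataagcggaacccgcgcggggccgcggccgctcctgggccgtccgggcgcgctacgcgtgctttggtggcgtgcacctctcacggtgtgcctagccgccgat
RefSeq windows were matched for 6 of the 8 genes (not Sqle or Fdft1). In Idi1 the CCAAT boxes began at bases 185 and 216 of the window, in Lss at base 169 and in Insig1 at base 58. CCAAT was found in 4 of the 6 windows, those of Idi1, Lss, Insig1 and Hmgcs1, against 37.5% of 33469 rat promoter windows of the same length. GGGCGG, the GC box, was found in 5 of the 6 and in 33.1% of all windows. TCACNCCAC, a form of the sterol response element, was found in 0 of the 6 and in 1.12% of all windows, which says only that these letters are not in these windows. Both strands were searched for each motif, and no 2 of these motifs share a base in the 3 promoters shown.

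All values below are log2 as deposited. A gene counted as above background where its group mean passed the level that 95% of 1153 negative-control probe sets stayed under, and this level averaged 5.42 in control arrays, 5.77 for T10, 5.52 for T50 and 5.65 for T100. By this measure Sqle, Idi1, Fdft1, Cyp51 and Insig1 were above background in all 4 groups, Lss in 3 and Dhcr7 in none. The medians over all probe sets of an array lay between 3.73 and 3.81. The 95th percentile over genes averaged 9.57 in control arrays, 9.42 for T10, 9.57 for T50 and 9.66 for T100, so the top of the value range was lowest in T10 and highest in T100. All 3 T10 arrays (9.36, 9.48 and 9.43) lay below the lowest other array, control replicate 3 (9.53). A fit with this percentile as covariate therefore cannot fully tell it apart from T10. All 8 hepatocyte markers examined, albumin among them, were below background in every group. Of 7 markers of simple epithelium and bile duct only the keratin gene Krt8 was above background. It had the same value, 19.06, on all 12 arrays, near the ceiling of the value range, so no difference between arrays can be read from it. The usual partner of Krt8, Krt18, was below background at 3.76 in control. In RNA from whole cultures, fewer cells of a type and less RNA per cell cannot be told apart.

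No gene of the pathway passed the test against control at any dose. Of the 7 genes, 0 were called at T10, 0 at T50 and 0 at T100 by limma (adjusted p under 0.05, Benjamini-Hochberg over 22093 genes), where 0.869%, 1.31% and 1.46% of all genes were called. At an unadjusted p under 0.05 there was 1 gene at each dose, Insig1 at T10, Sqle at T50 and Cyp51 at T100. Over all 22093 genes, 2778, 2325 and 2733 passed that level at T10, T50 and T100. The 95% confidence intervals of the 7 log2 differences lay between -0.55 and 0.95 at T10, between -0.61 and 0.52 at T50 and between -0.54 and 0.81 at T100. Each of these intervals therefore left out a 2-fold change of the array value in either direction. For Dhcr7, below background in every group, this does not exclude a 2-fold change in RNA. Nor does it for Lss or Insig1, whose control means of 5.92 and 5.86 lay close to background. The largest difference between any pair of groups among the 7 genes was that of Sqle, which was higher in T100 than in T50.

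**Figure D1:**
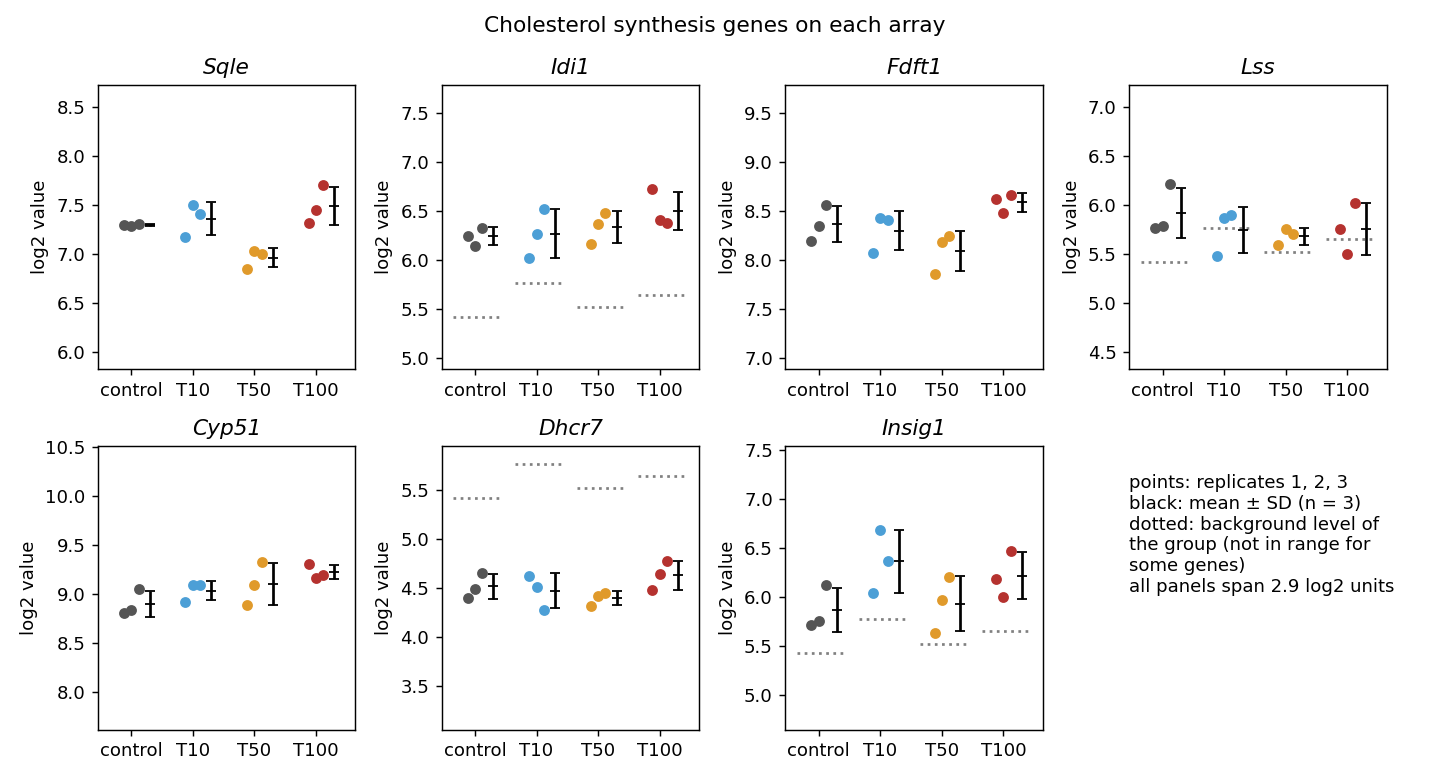
Log2 value of each of the 7 genes on each array (points, replicates 1 to 3 from left to right), with the group mean ± SD (n = 3) in black and the background level of the group as a dotted line where it falls in range. Sqle lies lowest in T50 (6.85 to 7.03) and all 3 T50 arrays sit below the 9 others. For Insig1 every pair of groups overlaps, and Dhcr7 stays below background.

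Idi1 encodes the isomerase that readies the isoprenoid unit for chain growth. Its log2 values were 6.25, 6.15 and 6.33 in control, 6.02, 6.27 and 6.52 in T10, 6.16, 6.37 and 6.48 in T50, and 6.73, 6.41 and 6.38 in T100. The 3 T100 arrays lay above the 3 controls, and T10 and T50 overlapped with every other group. The group means ran in order of dose, 6.24 ± 0.09, 6.27 ± 0.25, 6.34 ± 0.16 and 6.51 ± 0.19 (SD, n = 3 each), and no step between neighbours exceeded the larger SD of the pair. Against control the T100 difference was 0.26 ± 0.14 (SE; limma adjusted p = 0.495), and the ordered contrast over the 4 groups had an adjusted p of 0.421.

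Fdft1 encodes squalene synthase, which joins farnesyl units head to head and commits them to sterols. It read 8.20, 8.35 and 8.56 in control, 8.07, 8.43 and 8.41 in T10, 7.86, 8.18 and 8.24 in T50, and 8.63, 8.48 and 8.67 in T100. Control, T10 and T50 overlapped, while the T100 arrays all lay above those of T10 and of T50. The means were 8.37 ± 0.18 for control, 8.30 ± 0.20 for T10, 8.09 ± 0.21 for T50 and 8.59 ± 0.10 for T100 (SD, n = 3). From T50 to T100 the log2 difference was 0.50 ± 0.13 (SE, 95% interval 0.20 to 0.80), with an unadjusted p of 0.00412 and a limma adjusted p of 0.146, so it did not pass.

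Sqle encodes squalene epoxidase, a rate-limiting step of the sterol branch. Its values were 7.29, 7.28 and 7.30 in control, 7.17, 7.50 and 7.41 in T10, 6.85, 7.03 and 6.995 in T50, and 7.32, 7.45 and 7.70 in T100. All T50 arrays lay below, and all T100 arrays above, the narrow band of the controls. The group means ordered as T50 (6.96 ± 0.10), control (7.29 ± 0.01), T10 (7.36 ± 0.17) and T100 (7.49 ± 0.19; SD, n = 3), where T50 lay below control by more than the larger SD and the steps from control to T10 and from T10 to T100 did not exceed it. T100 exceeded T50 by 0.53 ± 0.10 log2 units (SE; 1.44-fold; 95% interval 0.30 to 0.76), which passed limma with an adjusted p of 0.0469. It was the only one of the 7 genes called in that comparison, where 1.16% of all genes were called. T50 was lower than control by a log2 difference of -0.33 ± 0.10 (adjusted p = 0.226) and lower than T10 by -0.40 ± 0.10 (adjusted p = 0.0992), and neither passed.

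The call on Sqle between T100 and T50 was narrow. It ended when any 1 control or T50 array, T10 replicate 3, or T100 replicate 2 or 3 was left out, at adjusted p between 0.0753 and 0.150, with a log2 difference of 0.43 without T100 replicate 3 and 0.48 without T50 replicate 1. It also ended with only the 6 arrays of both groups in the fit (0.53, adjusted p = 0.191) and with each array's 95th percentile as covariate (0.38, adjusted p = 0.130). After quantile normalization it was 0.48 with an adjusted p of 0.00943, and Sqle was then also lower in T50 than in control (-0.35, adjusted p = 0.0384) and than in T10 (-0.53, adjusted p = 0.00555).

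Lss encodes lanosterol synthase, which closes the sterol rings. Its values were 5.76, 5.78 and 6.22 in control, 5.47, 5.87 and 5.90 in T10, 5.59, 5.75 and 5.71 in T50, and 5.75, 5.496 and 6.02 in T100. The T50 arrays all lay below the controls, but their means differed by less than the SD of the controls, and the gene was close to background. Lss was the only one of the 7 genes whose mean was lower than control in all 3 exposed groups, by log2 differences of -0.17, -0.24 and -0.16 (each SE 0.17; limma adjusted p = 0.722, 0.694 and 0.785). With the 95th percentile as a covariate the T10 difference turned to 0.11. A second Lss probe set was below background in every group, so its differences (0.05, -0.13 and -0.04) add nothing to these.

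Cyp51 encodes the demethylase that starts the trimming of lanosterol. It read 8.80, 8.83 and 9.05 in control, 8.92, 9.10 and 9.09 in T10, 8.89, 9.09 and 9.32 in T50, and 9.31, 9.17 and 9.20 in T100. Only the T100 arrays lay wholly above the controls, and they also lay above those of T10. As with Idi1, the means ran in order of dose, at 8.90 ± 0.14, 9.03 ± 0.10, 9.10 ± 0.22 and 9.22 ± 0.07 (SD, n = 3), and T10 and control differed by about 1 SD while the other neighbours differed by less than their larger SD. T100 was above control by 0.33 ± 0.11 log2 units (SE, 95% interval 0.09 to 0.57, limma adjusted p = 0.213), and the ordered contrast had an adjusted p of 0.171.

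Dhcr7 encodes the reductase that completes cholesterol. Its lowest value was 4.28 (T10 replicate 3) and its highest 4.78 (T100 replicate 3), below background on all 12 arrays, so its differences are not given as folds. The 3 T100 arrays lay above those of T50, with a log2 difference of 0.23 ± 0.10 (SE; limma adjusted p = 0.443).

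Insig1 is both a brake on SREBP processing and one of its target genes. It read 5.71, 5.75 and 6.12 in control, 6.04, 6.69 and 6.36 in T10, 5.63, 5.96 and 6.20 in T50, and 6.18, 5.995 and 6.47 in T100. Each pair of groups overlapped by at least 1 array. The means were 5.86 ± 0.22 in control, 5.93 ± 0.28 in T50, 6.22 ± 0.24 in T100 and 6.36 ± 0.32 in T10 (SD, n = 3), and T50 and control, as well as T100 and T10, lay within their spread of each other. T10 was above control by 0.50 ± 0.20 log2 units (SE, 95% interval 0.05 to 0.95, limma adjusted p = 0.344), the largest of the 21 differences from control by size.

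**Figure D2:**
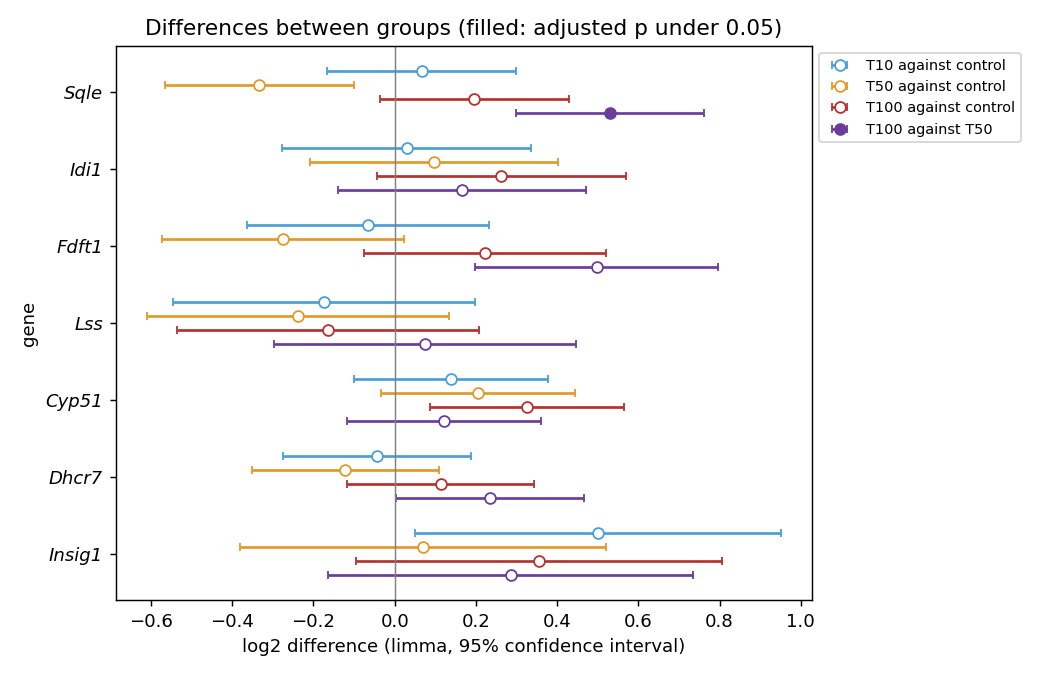
Log2 difference of each gene (x axis) with its 95% confidence interval from limma, for T10, T50 and T100 against control and for T100 against T50; a filled point has an adjusted p under 0.05. Only Sqle between T100 and T50 is filled (0.53), and all 7 genes have a positive difference in that comparison.

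Across the 7 genes, the median log2 difference from control was 0.03 at T10 (4 higher and 3 lower), -0.12 at T50 (3 and 4) and 0.22 at T100 (6 and 1), beside medians over all genes that round to 0.00 at each dose. After quantile normalization these medians were 0.14 (6 of 7 higher), -0.12 (3 of 7) and 0.15 (6 of 7). The median at T50 is the value of Dhcr7, and over the 6 genes above background the medians were 0.048, -0.084 and 0.24. Single arrays decided the first of these values: at T10 the median was -0.018 (3 of 7 higher) without control replicate 2, -0.0037 without T10 replicate 2, 0.072 without control replicate 3 and 0.15 (5 of 7 higher) without T10 replicate 1. At T50 it was -0.052 without control replicate 3, -0.080 without T50 replicate 1 and -0.18 (2 of 7 higher) without control replicate 1. At T100 it stayed between 0.19 and 0.31 when 1 array was left out. With the covariate the medians were 0.10, -0.12 and 0.15. The 3 comparisons share the control arrays. Among exposed groups, which do not use them, the median was -0.08 from T10 to T50, 0.16 from T10 to T100 and 0.23 from T50 to T100. Each of these is again the value of Dhcr7, and over the 6 genes above background they were -0.14, 0.16 and 0.23. From T50 to T100 7 of 7 genes were higher, or 6 of 7 with the covariate (median 0.16) and without T100 replicate 3 (0.16), and the median was 0.14 without T50 replicate 1. From T10 to T50 the median was -0.17 after quantile normalization, -0.34 with the covariate and -0.12 with the mean of all probe sets of a gene. It was -0.20 without T10 replicate 1, -0.15 without T10 replicate 3 and -0.036 without T50 replicate 1. From T10 to T100 6 of 7 were higher as deposited but 3 of 7 after quantile normalization, with a median of -0.046, so that direction rests on the scaling. That median was 0.086 with the covariate and 0.086 without T100 replicate 3.

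Beside the call of Sqle, no member was called among the exposed groups. Of the 7 genes 0 were called between T50 and T10, where 2.01% of all genes were, and 0 between T100 and T10, where 3.08% were. The ordered contrast called 0 of 7 (2.22% of all genes) and the F test for any difference among the 4 groups called 0 of 7 (3.8% of all genes). Sqle had the smallest F-test p, 0.00314, and an adjusted p of 0.0651. At an unadjusted p under 0.05, Sqle passed between T50 and T10, no gene passed between T100 and T10, and Cyp51 alone passed in the ordered contrast. Sqle and Fdft1 passed that level in the F test. Of all 22093 genes, 3200 passed it between T50 and T10 and 4025 between T100 and T10. In the ordered contrast 3192 passed it, and 4003 in the F test.

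Groups whose arrays did not overlap were counted in either direction. From control to T10 there were 0 of the 7, against 17% of all genes. From control to T50 there were 2 (Sqle and Lss, both lower; 17% of all genes), and from control to T100 3 (Sqle, Idi1 and Cyp51, all higher; 18.1%). Between exposed groups there was 1 from T10 to T50 (Sqle, lower; 17.4%), 2 from T10 to T100 (Fdft1 and Cyp51, higher; 20.9%) and 3 from T50 to T100 (Sqle, Fdft1 and Dhcr7, higher; 15.8%). With 7 genes, each gene is 14.3% of the set, and no test was made of these shares.

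Within a group, the genes lay mostly on 1 side of the group mean on 9 of the 12 arrays. Control replicate 3 lay above its group mean for 7 of 7 genes and T50 replicate 3 for 7 of 7, whereas control replicate 2 and T50 replicate 1 lay below it for 7 of 7. T10 replicate 1, control replicate 1 and T100 replicate 2 lay below it for 6 of 7, and T10 replicate 2 and T50 replicate 2 above it for 6 of 7. The others were mixed, with 5 of 7 above for T10 replicate 3 and T100 replicate 3 and 3 of 7 above for T100 replicate 1. On T10 replicate 1 the 95th percentile over genes was 9.36, the lowest of the 12, but T50 replicate 1 (9.57) lay between the other T50 arrays (9.54 and 9.62), and control replicate 3 (9.53) was the lowest control. The part of the value range in this shared pattern was not tested.

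The deviations from the group means give the size of it. Over the 12 deviations, the 15 pairs among the 6 genes above background had Pearson correlations from 0.14 (Sqle and Idi1) to 0.90 (Fdft1 and Insig1), with a median of 0.68 and 15 of 15 positive. The same measure over all pairs of 3905 other genes had a median of 0.14, with 62.7% of pairs positive. These 3905 are the genes above background in a group that are in none of the lists and have no value repeated on 3 or more arrays. Over the 12 values themselves the medians were 0.57 for the 15 pairs and 0.24 for all pairs. These are descriptions over 12 arrays, on each of which the genes share 1 RNA sample and its scaling, and Dhcr7, below background, had the single negative pairing (-0.51 with Idi1).

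**Figure D3:**
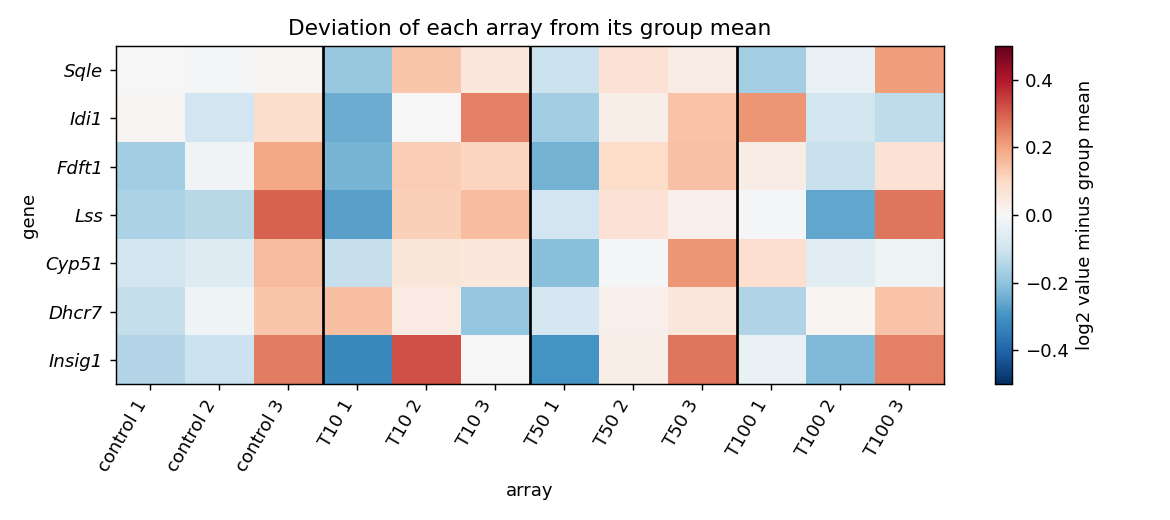
Deviation of each gene (rows) from its group mean in log2 units on each of the 12 arrays (columns; vertical lines part the groups), from blue (below) to red (above). Control replicate 3 and T50 replicate 3 are above the mean for 7 of 7 genes and T50 replicate 1 is below it for 7 of 7.

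The genes outside these lists whose 12 values followed the mean profile of the 6 genes above background most closely were Sort1 (Pearson r = 0.93), Prrc1 (0.92), Cic (0.91), Tfg (0.91) and Ptpn14 (0.89), out of 3905 ranked over 12 arrays. None of these 5 was called against control at any dose. Tfg had the largest difference of them, 0.60 log2 units at T100 (limma adjusted p = 0.288). Among listed genes outside the profile, Acat2 (0.96) followed it more closely than Sort1 did, and Fads2 (0.88) came next.

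Likewise, no other enzyme of sterol synthesis was called against control in the fit of all genes on all 12 arrays as deposited. Of 12 other sterol synthesis enzymes measured, 5 were above background in a group, and 0 were called against control at each dose. Of all genes, 0.869%, 1.31% and 1.46% were called at T10, T50 and T100. At an unadjusted p under 0.05 there were 1 at T10, 1 at T50 and 3 at T100, beside 2778, 2325 and 2733 of all 22093 genes. Their median differences were 0.01, -0.02 and 0.06, beside 0.00 over all genes. These medians take in enzymes below background. Among the 5 above it, Ebp and Sc5d had T100 means of 5.69 and 5.89, beside 5.67 and 5.93 in control. Acat2, Msmo1 and Erg28 were each higher at T100, by 0.48, 0.32 and 0.32. Erg28, whose yeast relative is a scaffold for sterol enzymes, had group means of 5.62, 5.73, 5.80 and 5.95 in order of dose. Its T100 difference was 0.32 ± 0.07 (SE, limma adjusted p = 0.0636). Erg28 was called at T100 in the fit of genes above background only and in that of only the arrays of both groups. Its ordered contrast was called (adjusted p = 0.0482), but not in 10 of 12 fits that left out 1 array, at up to 0.139 without control replicate 1; of these the call held only without T10 replicate 2 or T50 replicate 1. It also ended under quantile normalization (0.101), an intensity trend with a robust prior (0.0527) and the covariate (0.375). Pmvk, the kinase that makes mevalonate diphosphate, was below background and differed by 0.11 at T100. Acat2, which joins acetyl-CoA units at the start of the pathway, and Msmo1, which removes methyl groups from lanosterol's products, were named after their values were seen, at 0.48 ± 0.21 and 0.32 ± 0.15 (adjusted p = 0.401 and 0.454).

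Of 10 sterol sensing and feedback genes (4 above background in a group), 1 fell at each dose and 0 rose. Over all genes, 0.869%, 1.31% and 1.46% were called at T10, T50 and T100. An unadjusted p under 0.05 was reached by 2, 3 and 3 of the 10, beside 2778, 2325 and 2733 of all 22093 genes. Srebf2, which encodes the SREBP that drives cholesterol synthesis, read 7.13, 7.19 and 7.32 in control and 6.91, 6.99 and 6.91 in T50. All T50 arrays lay below the controls, and the log2 difference was -0.28 ± 0.05 (SE; limma adjusted p = 0.0440). Its T10 and T100 means were 7.17 and 7.06. The call ended in 11 of 12 fits that left out 1 array, all but the one without T10 replicate 2, at adjusted p of 0.0508 to 0.138, with an intensity trend and robust prior (0.0810) and with only the arrays of both groups (0.146). Nr1h3, which encodes the oxysterol receptor LXR alpha, fell at T10 (-0.26 ± 0.05, adjusted p = 0.0472) and at T100 (-0.27 ± 0.05, adjusted p = 0.0319), but it was below background in every group. At T10 its call ended in each of the 12 fits that left out 1 array (adjusted p up to 0.157 without T10 replicate 1) and under the quantile, trend, both-groups-only and covariate settings (0.0723, 0.0501, 0.189 and 0.611). At T100 it ended without any 1 of the 3 control or 3 T100 arrays and without T50 replicate 2, at up to 0.0938 without T100 replicate 1, and with only the arrays of both groups (0.117). The covariate lowered the calls over all genes at T10 from 192 to 15, and the T10 arrays were the 3 lowest in it. Its values at T10 therefore say little about a single gene.

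Of 11 genes of sterol efflux, storage and trafficking (4 above background in a group), 0 were called at T10 and at T50, beside 0.869% and 1.31% of all genes. There 4 and 3 had an unadjusted p under 0.05, beside 2778 and 2325 of all 22093 genes. At T100 1 rose and 1 fell, where 1.46% of all genes were called. Npc2, which hands cholesterol out of the lysosome, read 8.68, 8.52 and 8.44 in control and 7.98, 7.82 and 7.83 in T100. The groups did not overlap, and the log2 difference was -0.67 ± 0.10 (SE; 1.59-fold lower; limma adjusted p = 0.0131). It was lost only without control replicate 1 or 2, at adjusted p of 0.0502 and 0.0555. Scarb1, the receptor that takes up cholesterol from high-density lipoprotein, rose by 0.20 ± 0.03 at T100 (adjusted p = 0.0131) while below background in every group. It lost its call without control replicate 1 or 2 or T100 replicate 1 (up to 0.0621), under the covariate setting (0.0507) and with only the arrays of both groups (0.0622).

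Fatty acid synthesis genes, which SREBP-1 drives, had the most calls of these lists at T100, and theirs was also the longest list. Of 15 measured (11 above background in a group), 3 rose and 0 fell there, where 1.46% of all genes were called. At T10 and at T50 0 were called, beside 0.869% and 1.31% of all genes. There 1 and 2 had an unadjusted p under 0.05, beside 2778 and 2325 of all 22093 genes. With or without a call, 11 of the 15 were higher in T100 than in control and 4 were lower. Srebf1, the gene of SREBP-1, was below background in every group, with means of 4.22 in control and 4.23 in T100. Elovl5, an elongase of polyunsaturated fatty acids, read 11.70, 11.56 and 11.90 in control and 12.31, 12.28 and 12.32 in T100, a difference of 0.58 ± 0.10 (SE; 1.498-fold; limma adjusted p = 0.0257). Acsl3, which activates long-chain fatty acids, rose by 0.66 ± 0.13 (1.58-fold, adjusted p = 0.0423), and its means ran in order of dose, at 7.58, 7.78, 8.03 and 8.25. Me1, the malic enzyme that supplies reducing power, rose by 0.33 ± 0.06 (1.26-fold, adjusted p = 0.0308) and was also higher in T100 than in T50 (0.43 ± 0.06, adjusted p = 0.0106, or 0.104 with only the arrays of both groups). The T100 arrays of all 3 genes lay above the controls. Fads2, Elovl6 and Fads1, named after their values were seen, were also higher at T100 without a call. Their control and T100 means were 10.36 and 11.26, 14.00 and 14.88, and 10.53 and 11.27. Elovl6 was called with only the arrays of both groups in the fit. Fasn and Acly, likewise named after their values were seen, were lower than control at T10 and at T50. Fasn, the fatty acid synthase, had a mean of 9.66 in control and of 9.09, 9.22 and 9.31 at the rising doses. Its differences from control were -0.57, -0.44 and -0.35 (limma adjusted p = 0.346, 0.558 and 0.617). With the covariate the T10 difference turned to 0.20 and the T100 difference was -0.78 (adjusted p = 0.0277), a call. Acly, which supplies cytosolic acetyl-CoA, differed by -0.29, -0.38 and 0.10 (adjusted p = 0.424, 0.320 and 0.863). Its T50 arrays all lay below the controls, and its T50 difference was called with only the arrays of both groups in the fit.

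These 3 calls against control were narrow, and each ended when any 1 of several arrays was left out. Leaving out 1 control or T100 array also lowered the calls over all genes at T100, from 323 to between 89 and 218. Elovl5 lost its call without control replicate 1 or 2 or any 1 T100 array (up to 0.0941), Me1 without any 1 control, T10 replicate 3, or T100 replicate 1 or 3 (up to 0.0978), and Acsl3 without any 1 control, T10 replicate 3, T50 replicate 2 or any 1 T100 array (up to 0.153). With the 95th percentile as a covariate their adjusted p values (in that order) were 0.09998, 0.0972 and 0.145, with differences of 0.54, 0.25 and 0.62. With only the 6 arrays of both groups they were 0.0741, 0.117 and 0.0491. The median over the 15 genes at T100 was 0.24, beside 0.00 over all genes. T100 arrays also had the highest 95th percentile of values (9.66 on average), and its part in these rises beyond that covariate was not tested.

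The non-sterol branch, which spends isoprenoid units on prenylation, ubiquinone and dolichol, had 11 genes measured and 5 above background. At T10 1 of them was called, where 0.869% of all genes were. This was Fntb, a subunit of farnesyltransferase, which fell (-0.26 ± 0.05, limma adjusted p = 0.0428) and was below background in every group. Its call held only without T10 replicate 2 or T100 replicate 3, and was otherwise lost at up to 0.165 (without control replicate 2); under the quantile, trend, both-groups-only and covariate settings it was 0.0522, 0.0501, 0.108 and 0.621. None was called at T50 or T100, where 1.31% and 1.46% of all genes were. There 1 and 2 had an unadjusted p under 0.05, beside 2325 and 2733 of all 22093 genes.

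**Figure D4:**
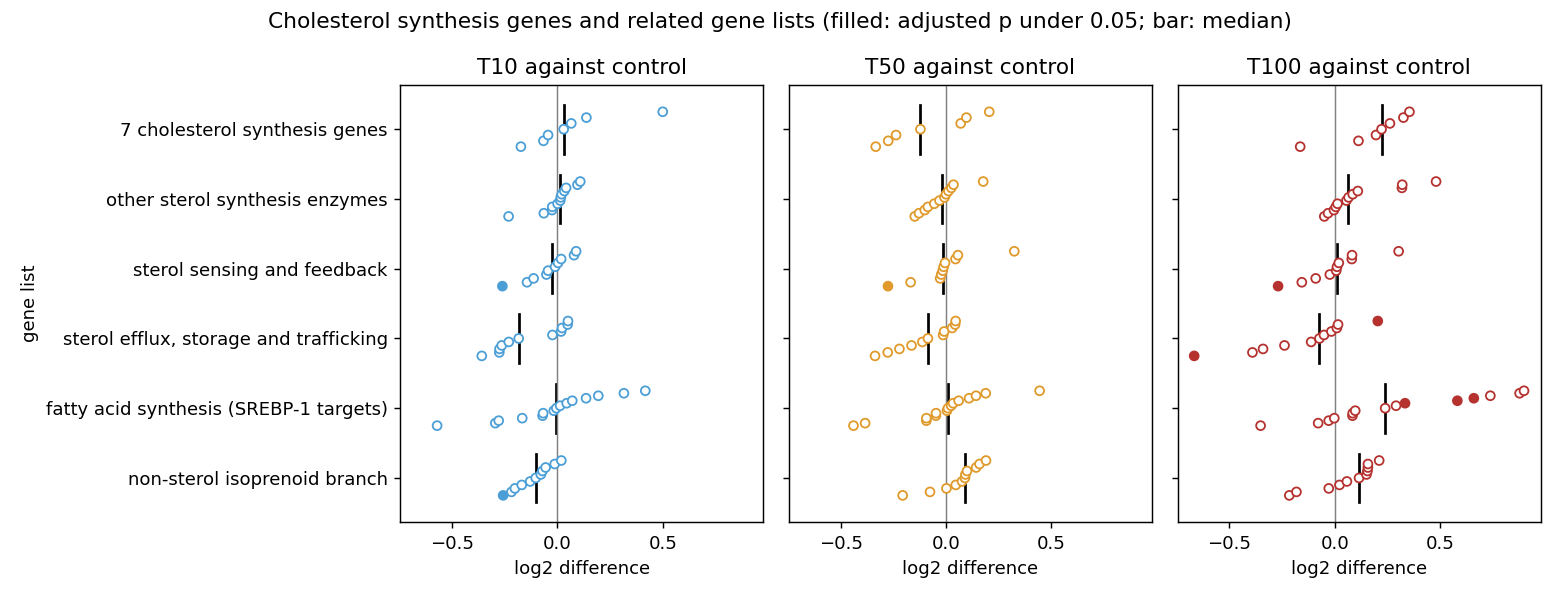
Log2 difference from control (x axis) of every measured gene in the 7 cholesterol synthesis genes and 5 related lists (rows), at T10, T50 and T100; filled points have an adjusted p under 0.05 and the black bar is the list's median. No cholesterol synthesis gene is filled, and the T100 panel holds the 3 filled fatty acid synthesis genes between 0.33 and 0.66.

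Markers of other liver cells were set beside these results. Of 7 stellate cell and fibroblast markers 2 were above background, Acta2 and Col1a1, and both rose at T100 (2.04 ± 0.30 and 2.36 ± 0.29, limma adjusted p = 0.0134 and 0.00712), while Des, Pdgfrb, Lrat, Dcn and Lum were below background in every group. The summed log2 level of the 7 ran from 37.4 to 37.7 in control, 35.05 to 36.0 in T10, 34.99 to 36.7 in T50 and 40.9 to 42.3 in T100. Of 5 endothelial and 5 leukocyte markers 1 each was above background, Tek and Cd14, with Pecam1 and Ptprc below it. Their summed levels were 21.2 to 21.3 and 21.5 to 21.7 in control, 20.5 to 20.7 and 20.8 to 21.3 in T10, 21.2 to 21.6 and 20.8 to 21.1 in T50, and 20.6 to 20.8 and 21.1 to 21.4 in T100. At T10 the log2 value of Acta2 fell by 2.21 and that of Tek by 0.64 (adjusted p = 0.0114 and 0.0258). Tek was higher in T50 than in T10 by 0.93 (adjusted p = 0.00286) and lower in T100 than in T50 (-0.72, adjusted p = 0.0130). Cd3e, a T cell gene below background in every group, fell at T10 (-0.55, adjusted p = 0.00111) and at T50 (-0.38, adjusted p = 0.00482). The part of these markers in the differences of the sterol genes was not tested.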

How the data were processed

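The 12 RNA samples were labelled with the Affymetrix WT Plus kit from 100 ng, per the labels' protocols. The authors deposited log2 values for each probe set, from 2.87 to 19.93, and the base was inferred from that range. Background correction, summarization and scaling are not given in the sources used here.

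Of 70580 probe sets, 23446 carried 1 symbol. The brightest per gene by its mean over 12 arrays was kept, which left 22093 genes, 4581 of them above background in a group. limma 3.58.1 in R 4.3.3 (lmFit, eBayes, 4 group means, 12 arrays, two-sided) gave the contrasts, with Benjamini-Hochberg adjustment over all genes and calls at an adjusted p under 0.05. Errors are SE of the fit, or SD where stated. Precision is limited by how few arrays there are.

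The members and the lists were chosen with earlier results of these data known. Named were all members, called genes of each list against control (or the 2 with the smallest F-test p) and the 5 genes closest to the members' mean profile. Alternatives were quantile normalization, leaving out dim genes, an intensity trend with a robust prior, fitting only the groups compared, the mean of all probe sets of a gene, the replicate block, the 95th percentile as a covariate, and leaving out each array. Some other genes of the pathway are not reported here.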

Additional observations from a re-analysis of the deposited data

How the results depend on the processing

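Counts of called genes among the 7 moved between 0 and 1, and each time the gene was Sqle. Quantile normalization gave 1 for T50 against control, 1 for T50 against T10 and 1 for any difference among the 4 groups. Leaving out genes below background gave 1 for T50 against T10 and 1 for any difference. The covariate gave 1 for any difference and 0 for T100 against T50, and the fit of only the groups compared gave 0 for T100 against T50. Leaving out 1 array gave 0 to 1 for T100 against T50 and 0 to 1 for any difference, and 0 in the other comparisons. With the replicate block, any difference gave 1 called gene, and the other counts of the 7 were the same; Acsl3, Me1 and Nr1h3 at T100, Nr1h3 and Fntb at T10, Srebf2 at T50 and Erg28 over the ordered groups lost their calls with it, at adjusted p of 0.0681, 0.0640, 0.0601, 0.0876, 0.0953, 0.0893 and 0.0523. Over genes above background, same-numbered arrays correlated above 0.1 in 3 of 18 pairs (-0.30 to 0.22), and 5 of 12 arrays correlated best with their own number. These values do not settle whether arrays of a number share a source, which the labels do not say. For the 7 genes, deviations from the group means averaged over the 4 groups were negative for 7 of 7 on arrays numbered 1 (-0.049 to -0.20) and positive for 7 of 7 on arrays numbered 3 (0.037 to 0.19).

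Signs turned only for differences that were never called. Under quantile normalization, these were Fdft1 (0.065) and Dhcr7 (0.0084) at T10, Idi1 (-0.049) and Cyp51 (-0.070) from T10 to T50, and Sqle (-0.046), Lss (-0.14) and Cyp51 (-0.051) from T10 to T100. With the covariate they were Fdft1 (0.06) and Lss (0.11) at T10, Sqle (-0.30) and Lss (-0.43) from T10 to T100, and Lss (-0.080) from T50 to T100. The covariate cannot be fully told apart from T10, which limits the turns that involve T10. With the mean of all probe sets, Lss turned (-0.039) from T10 to T100. Leaving out 1 array gave ranges of -0.0037 to 0.16 for Sqle (T10 against control), -0.096 to 0.15 for Idi1 (T10 against control), -0.15 to 0.051 for Fdft1 (T10 against control), -0.12 to 0.053 for Dhcr7 (T10 against control), -0.063 to 0.22 for Insig1 (T50 against control), -0.058 to 0.19 for Idi1 (T50 against T10), -0.20 to 0.012 for Lss (T50 against T10), -0.043 to 0.17 for Cyp51 (T50 against T10), -0.13 to 0.14 for Lss (T100 against T10), -0.31 to 0.017 for Insig1 (T100 against T10) and -0.060 to 0.20 for Lss (T100 against T50). Signal over background limits what can be read from Dhcr7 (below it), and from Lss and Insig1 (near it).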
